A study of Mus musculus with 14 samples.

Results

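Adult Klf5CN corneas were set against juvenile WT corneas, to ask how far the mutant tissue at postnatal day 56 (PN56) resembled the WT tissue at postnatal day 11 (PN11) and where it differed. The comparison used 7 of the 14 arrays of the series, 4 of PN56 Klf5CN corneas and 3 of PN11 WT corneas, chosen by their labels alone and read over all 45101 probe sets. No PN56 WT array entered. Klf5CN mice were Klf5 loxP/loxP, Le-Cre/-, in which Cre from the Le (Pax6) transgene deletes Klf5 in tissues that come from the surface ectoderm of the eye, corneal epithelium, conjunctiva and lens among them, and not in the stroma, vessels or immune cells. WT mice were Klf5 loxP/loxP without Cre, so that both groups carried the floxed alleles. The background strain of both was mixed, and each array held the pooled RNA of both corneas of a single mouse, so that replicates were separate mice. Age and genotype differ together between these groups, so that their parts in any difference cannot be told apart.

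Klf5 is a zinc finger transcription factor of the Kruppel-like family that is strongly expressed in proliferating cells of stratified epithelia. The cornea is a stratified squamous epithelium on a collagenous stroma, in which keratocytes lay down regularly spaced collagen fibrils, with a single layer of endothelium behind it. In mice the eyelids open after PN11. The stroma is still being built at that age, while the epithelium goes on to stratify and then meets air, tear film and microbes.

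Signals are the authors' array values on the log2 scale. A signal under 10 was set to 10, which is 3.32 on that scale and the lowest value printed here. Differences are PN56 Klf5CN minus PN11 WT, so that a positive one means higher in the mutant. A gene was called higher or lower where the group means were more than 2-fold apart and limma's adjusted p was under 0.05. It was counted as alike where the 95% interval of its difference lay wholly inside 2-fold. Of 13115 tested genes, each read by its brightest tested probe set, 954 were higher in PN56 Klf5CN corneas (7.27%), 1711 were lower (13%) and 7140 were alike (54.4%). The 2665 calls were 20.3% of the genes, and the other 3310 genes (25.2%) met neither condition. Arrays of the groups did not overlap for 6483 genes (49.4%), with the mutant higher for 2502 (19.1%) and lower for 3981 (30.4%). The median gene differed by log2 -0.11, and the quartiles of the differences were -0.58 and 0.33. A gene was tested where its signal was above 20 in at least 3 of the 7 arrays, so that a gene low in either group entered through the other group alone, and counts over the tested members of a list depend on this. Likeness could be shown more often for bright genes, with 73.2% alike among the brightest genes and 24.9% among the dimmest when they were divided into 4 equal bins.

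**Figure D1:**
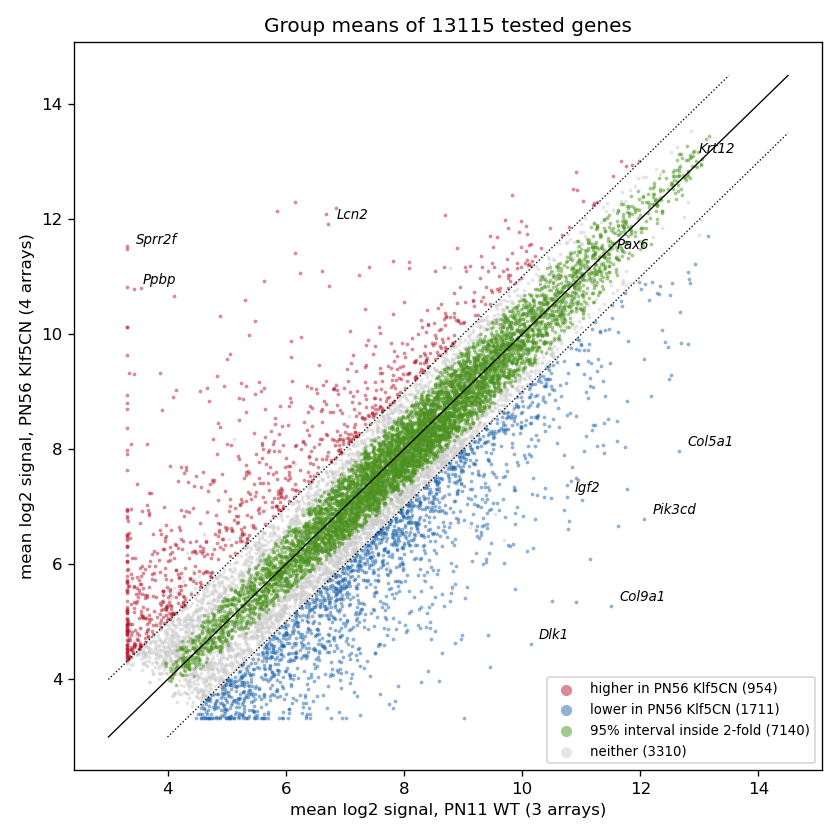
Mean log2 signal of each of 13115 tested genes in PN56 Klf5CN corneas (vertical axis, 4 arrays) against PN11 WT corneas (horizontal axis, 3 arrays). The solid line marks equal means and the dotted lines a 2-fold difference, and colours give the 954 genes higher, 1711 lower, 7140 alike and 3310 neither.

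The choice of probe set changed the balance of the calls. Over all 27637 tested probe sets 3542 were higher in PN56 Klf5CN corneas (12.8%), 2909 were lower (10.5%) and 12904 were alike (46.7%). Among the 10554 further probe sets of genes with several, 17.3% were higher and 8.82% lower, and among the 3327 probe sets without a symbol 20.5% and 6.61%. When each gene was read by its probe set of smallest p, 1991 genes were higher and 2028 lower. The genes with a single tested probe set, for which no choice arises, gave 588 higher and 1086 lower of 6985.

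The 3 PN11 WT arrays correlated at 0.98 to 0.983 with each other, the 4 PN56 Klf5CN arrays at 0.936 to 0.977, and the groups at 0.843 to 0.877. PN56 Klf5CN replicate 4 stood apart from its group on the second principal component. It was also the mutant array nearest to the juvenile ones. Its mean correlation with the PN11 WT arrays was 0.875, against 0.847 to 0.852 for the others of its group. On component 1 it lay at -51.3, against -81.3 to -75.2. Its ratio of 3-prime to 5-prime signal of Actb, a measure of how complete the labelled RNA was, was log2 1.4, against 0.41 to 0.47 in the other PN56 Klf5CN arrays and 0.23 to 0.27 in the PN11 WT arrays. The ratio was higher in every PN56 Klf5CN array than in any PN11 WT array, for Actb and for Gapdh alike (differences of log2 0.43 and 0.40, two-sided exact permutation test, p = 0.057 for each, the smallest p that 4 against 3 arrays allow). PN56 Klf5CN replicate 3 had the lowest median of its group in the collagen, stromal cell and leukocyte lists described below. These values move with the groups, and their part in the differences was not tested beyond the fits that leave out each array or add the Actb ratio.

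**Figure D2:**
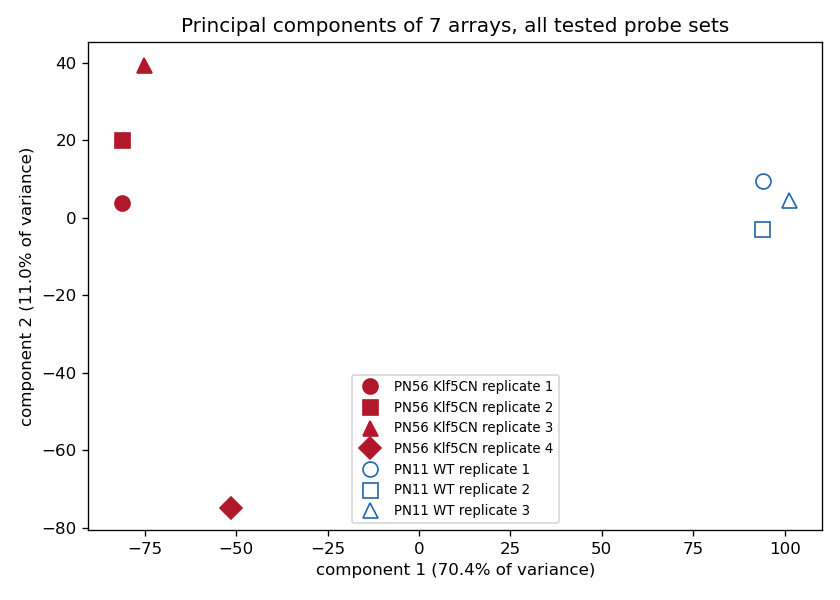
Position of the 4 PN56 Klf5CN arrays (filled) and the 3 PN11 WT arrays (open) on principal components 1 and 2 of 27637 probe sets. Component 1 held 70.4% of the variance and separated the groups, and component 2 held 11.0% and separated PN56 Klf5CN replicate 4 at -74.8 from the other arrays, which ran from -2.9 to 39.5.

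Klf5 itself was read by 3 probe sets, and 2 of them were far lower in the corneas labelled Klf5CN. On the probe set with the larger fall the log2 signal was 6.44, 4.35, 5.23 and 5.23 in the PN56 Klf5CN arrays, against 10.41, 10.34 and 10.18 in the PN11 WT arrays (log2 -5.00, SE 0.39, adjusted p = 3.8e-05). On another it was 6.14, 3.32, 5.15 and 4.41 in the PN56 Klf5CN arrays, against 9.21, 8.91 and 9.18 in the PN11 WT arrays (log2 -4.35, SE 0.54, adjusted p = 0.00036). The groups did not overlap on either. The brightest Klf5 probe set over the 7 arrays went the other way at 9.19, 8.98, 8.69 and 9.59 in PN56 Klf5CN corneas and 8.43, 8.51 and 8.07 in PN11 WT corneas (log2 0.78, SE 0.21, adjusted p = 0.017), short of 2-fold. Its position relative to the loxP sites is unknown here, so that it was not used to check the deletion.

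Of 14 tested Kruppel-like factors 0 were called higher, against 7.27% of all genes, 4 were lower, against 13%, and 4 were alike, against 54.4%. Klf5 is among the 14 and is read here by its brightest probe set, so that its falls on the other probe sets are not in these counts. Klf4, a factor of the differentiating corneal epithelium, was alike at 12.31, 12.24, 12.58 and 13.02 in PN56 Klf5CN corneas and 12.16, 12.17 and 12.19 in PN11 WT corneas (log2 0.37, 95% interval -0.07 to 0.80). Klf3 (log2 0.38, 95% interval 0.07 to 0.70), Klf7 (log2 -0.22, 95% interval -0.68 to 0.23) and Klf10 (log2 0.45, 95% interval 0.15 to 0.75) were alike as well. The 4 called lower were Klf9, a factor induced by glucocorticoid and thyroid hormone (log2 -1.91, SE 0.38, adjusted p = 0.0037), Klf15 (log2 -1.38, SE 0.44, adjusted p = 0.033), Klf2, which marks vessel walls and resting lymphocytes (log2 -1.24, SE 0.38, adjusted p = 0.026), and Klf12 (log2 -1.24, SE 0.44, adjusted p = 0.049). Klf15 was described by the authors as having essentially no transcripts in the cornea. The number lower was 1 without PN56 Klf5CN replicate 3, 3 without replicate 2, and 2 without PN56 Klf5CN replicate 1 or any of the 3 PN11 WT arrays.

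Of 10 tested keratins, crystallins and adhesion genes that mark corneal epithelium, 7 were alike, 1 was higher and 0 were lower. The share alike over all genes was 54.4%, and over the brightest genes, among which all 10 lie, 73.2%. Krt12, the keratin particular to corneal epithelium, had log2 signals of 13.10, 12.63, 12.60 and 13.96 in PN56 Klf5CN arrays, against 13.10, 12.72 and 12.70 in PN11 WT arrays. The groups overlapped, and the 95% interval of the difference ran from -0.47 to 0.94. Krt5, the basal keratin of stratified epithelia, had 13.14, 12.81, 12.89 and 13.90 in PN56 Klf5CN arrays, against 13.05, 12.81 and 12.84 in PN11 WT arrays. The groups overlapped again, and PN56 Klf5CN replicate 4 was the highest of the 7 arrays for both keratins. Krt15, a keratin of limbal and basal cells (log2 -0.10, 95% interval -0.53 to 0.33), and the corneal crystallins Aldh3a1 (log2 0.37, 95% interval -0.23 to 0.97) and Tkt (log2 0.00, 95% interval -0.60 to 0.61) were alike on their brightest probe sets, though another probe set of Tkt fell (log2 -2.04, adjusted p = 0.006). The epithelial adhesion molecule Epcam was the only member called, at 11.17 ± 0.42 in PN56 Klf5CN corneas and 9.98 ± 0.22 in PN11 WT corneas (SD, n = 4 and 3, log2 1.19, SE 0.22, adjusted p = 0.0028).

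Of 19 tested transcription factors of the corneal epithelium 4 were higher, 0 lower and 7 alike. The share higher was 21.1%, against 7.27% of all genes, and the share alike was 36.8%, against 54.4%. Pax6, the eye master regulator, had 11.39, 11.49, 11.62 and 11.07 in PN56 Klf5CN arrays and 11.59, 11.40 and 11.40 in PN11 WT arrays, with a 95% interval of -0.41 to 0.28 on its brightest probe set. A dimmer probe set of Pax6 was higher in the mutant (log2 3.05, adjusted p = 0.00077), and the mean of its probe sets was too (log2 1.01, adjusted p = 0.0075). Tfap2a (log2 -0.26, 95% interval -0.61 to 0.09) and Grhl2 (log2 0.69, 95% interval 0.41 to 0.98) were alike too on the brightest probe set, and Tfap2a rose on another (log2 1.11, adjusted p = 0.0023). The 4 that rose were Elf3 (log2 1.42, SE 0.18, adjusted p = 0.00041) and Ehf (log2 1.13, SE 0.11, adjusted p = 0.0001), both Ets factors of differentiating epithelium, with Ovol1 (log2 1.28, SE 0.20, adjusted p = 0.0011) and the barrier regulator Grhl3 (log2 1.16, SE 0.19, adjusted p = 0.0016). The difference of Trp63, the factor of the basal layer, was log2 0.65 (SE 0.18, adjusted p = 0.019), short of 2-fold. With the probe set of smallest p for each gene, 8 were higher and 2 lower.

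In the desmosome, the rivet-like junction that holds keratinocytes together, 9 of 15 tested genes were alike, 1 was lower and 0 were higher. In the tight junction, which seals the surface cells, 12 of 16 were alike and 2 were lower, beside 54.4% alike over all genes and 73.2% over the brightest. Perp (log2 0.11, 95% interval -0.26 to 0.48), Dsc2 (log2 0.24, 95% interval -0.08 to 0.56) and Dsc3 (log2 0.35, 95% interval -0.06 to 0.76) were the brightest alike members of the desmosome. The exception was Dsg1a, a desmosomal cadherin of upper layers, with 8.60, 8.99, 10.09 and 8.55 in PN56 Klf5CN arrays, against 10.79, 10.41 and 10.32 in PN11 WT arrays (log2 -1.45, SE 0.34, adjusted p = 0.0083). The claudins Cldn10 (log2 -1.59, SE 0.29, adjusted p = 0.0025) and Cldn8 (log2 -1.15, SE 0.28, adjusted p = 0.0097) fell, 1 of these 2 calls being lost without PN56 Klf5CN replicate 4, while Cldn7 (log2 0.40, 95% interval -0.04 to 0.83), F11r (log2 0.59, 95% interval 0.30 to 0.89) and Tjp1 (log2 0.61, 95% interval 0.26 to 0.95) were alike. Of 6 connexins tested, Gjb2 rose (log2 1.10, SE 0.17, adjusted p = 0.0012), a call lost without PN56 Klf5CN replicate 1 or PN11 WT replicate 2, the vessel and muscle connexins Gja4 (log2 -2.16, SE 0.18, adjusted p = 5.4e-05) and Gjc1 (log2 -2.32, SE 0.33, adjusted p = 0.00075) fell, and Gja1, the main connexin of corneal epithelium, was alike (log2 0.37, 95% interval -0.10 to 0.84) on its brightest probe set and higher on another (log2 3.30, SE 0.32, adjusted p = 0.00011). Several of these genes have dimmer probe sets that rose, and with the probe set of smallest p 5 desmosomal and 3 tight junction genes were higher. Dsp, which ties keratin filaments to the desmosome, showed this most. Its brightest probe set averaged 12.87 in PN56 Klf5CN corneas and 12.27 in PN11 WT corneas (log2 0.60, SE 0.18, adjusted p = 0.026), and its most divergent one 10.55 and 3.56 (log2 6.99, SE 0.24, adjusted p = 7e-07).

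Of the 10 brightest alike genes 5 encode ribosomal proteins (Rps29, Rps28, Rpl38, Rpl13a and Rps3a1), and the others are Tmsb4x, Eef1a1, Krt5, Actg1 and Anxa2. Their differences lay between log2 -0.07 and 0.48. Over all 53 tested ribosomal protein genes 45 were alike, 1 was higher and 3 were lower. Of 77 tested subunits of oxidative phosphorylation 66 were alike, 3 were lower and 0 higher, with a median difference of -0.16. The share alike was 85.7%, against 54.4% of all genes and 73.2% of the brightest. The 3 that fell were Cox6b2 (log2 -2.24, SE 0.32, adjusted p = 0.00072), Ndufs8 (log2 -1.26, SE 0.14, adjusted p = 0.00017) and Atp5md (log2 -1.17, SE 0.29, adjusted p = 0.011).

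Of 33 tested genes of DNA replication and mitosis 0 were called by limma in either direction. The 20 alike were 60.6% of the list, against 54.4% of all genes. At an unadjusted p under 0.05 and with no fold minimum 16 were higher and 0 lower, and 12 and 0 were at an adjusted p under 0.05. The median difference of the list was 0.38, and its upper end was Top2a, which untangles replicated DNA, at 9.85, 9.95, 9.84 and 9.46 in PN56 Klf5CN arrays and 8.92, 8.70 and 8.71 in PN11 WT arrays (log2 0.999, SE 0.14, adjusted p = 0.00078). The next was Mcm5 of the replicative helicase (log2 0.99, SE 0.25, adjusted p = 0.011). Both lay just under the 2-fold line, and their arrays did not overlap between the groups. With array medians subtracted 2 genes of the list crossed it, and with the mean of the probe sets of each gene 3 did. Without PN56 Klf5CN replicate 1, 2 or 4 the number higher was 2, and without PN11 WT replicate 1 or 3 it was 1. Pcna (log2 0.49, 95% interval 0.07 to 0.91), Cdc20 (log2 0.41, 95% interval 0.04 to 0.77) and Ube2c (log2 -0.18, 95% interval -0.69 to 0.32) were alike. The growth marker Mki67 had 9.38, 9.43, 9.61 and 9.09 in PN56 Klf5CN arrays, against 8.71, 8.58 and 8.27 in PN11 WT arrays (log2 0.86, SE 0.16, adjusted p = 0.0028).

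**Figure D3:**
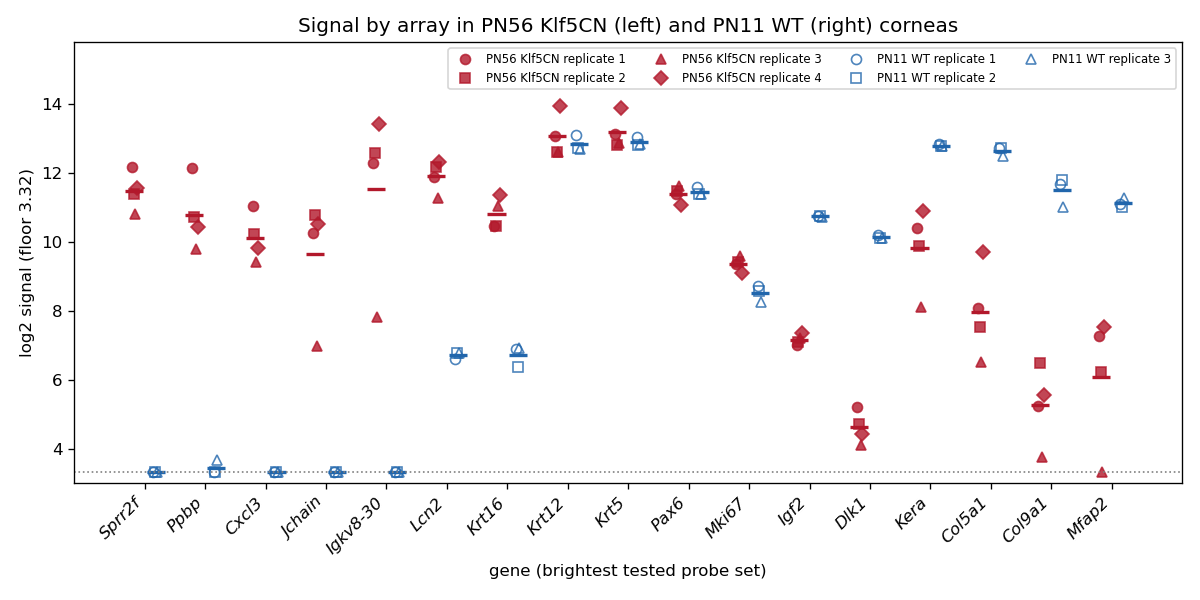
Log2 signal of 17 genes on each PN56 Klf5CN array (filled, left of each pair) and each PN11 WT array (open, right of each pair), with bars at the group means and a dotted line at the floor of 3.32. Krt12, Krt5 and Pax6 overlap between the groups, while the genes to their left, Mki67 and the genes to its right do not.

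Most of the extracellular matrix was lower in the adult mutant than in the juvenile cornea. Over 7 matrix lists combined 78 of 121 tested genes were lower in PN56 Klf5CN corneas, against 13% of all genes, 1 was higher and 22 were alike, with a median difference of -1.72. Of 38 tested collagen chains 29 were lower, 0 higher and 4 alike. RNA was taken from whole corneas, so that fewer cells of a kind and less RNA per cell cannot be told apart.

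Among fibril-forming collagens 9 of 11 were lower. Col5a1, a chain of the type V collagen that limits fibril diameter, had 8.10, 7.54, 6.51 and 9.72 in PN56 Klf5CN arrays, against 12.72, 12.73 and 12.51 in PN11 WT arrays (log2 -4.69, SE 0.59, adjusted p = 0.00039). Every mutant array lay below every juvenile one, with replicate 3 lowest and replicate 4 highest. Its partner in the same fibrils, Col11a1, had 6.47, 5.12, 3.93 and 5.84 in PN56 Klf5CN arrays, against 10.93, 11.01 and 10.78 in PN11 WT arrays (log2 -5.57, SE 0.49, adjusted p = 6.3e-05). Col24a1, another fibril-forming chain (log2 -4.21, SE 0.25, adjusted p = 1e-05), and Col2a1, the collagen of cartilage and vitreous, fell as well. Col2a1 was at the floor in all PN56 Klf5CN arrays, at least 13-fold lower (log2 -3.70, SE 0.20, adjusted p = 8.1e-06), though it had no Present call in either group. The chains of the main stromal fibrils differed less. Col1a1 had 11.56, 10.75, 9.06 and 12.47 in PN56 Klf5CN arrays, against 13.06, 12.69 and 12.73 in PN11 WT arrays (log2 -1.87, SE 0.64, adjusted p = 0.042), Col3a1 differed by log2 -1.28 (SE 0.50, adjusted p = 0.065) and Col1a2 by -0.70 (SE 0.47, adjusted p = 0.26). Col3a1 and Col1a2 did not meet the call.

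The largest fitted fall of the 13115 genes was that of Col9a1, a collagen that decorates the surface of fibrils. It had 5.25, 6.50, 3.77 and 5.57 in PN56 Klf5CN arrays, against 11.69, 11.80 and 11.03 in PN11 WT arrays, a 75.4-fold difference (log2 -6.24, SE 0.53, adjusted p = 5.1e-05). Of the 17 fibril-associated, beaded and network collagens 12 were lower and 3 alike, among them the 3 chains of type VI collagen, Col6a1 (log2 -3.27, SE 0.60, adjusted p = 0.0025), Col6a2 (log2 -3.24, SE 0.63, adjusted p = 0.0035) and Col6a3 (log2 -2.69, SE 0.34, adjusted p = 0.0004), which form beaded filaments between fibrils. The 3 alike were Col17a1, an epithelial collagen of the hemidesmosome (log2 -0.24, 95% interval -0.72 to 0.24), Col23a1 (log2 0.54, 95% interval 0.15 to 0.93) and Col22a1 (log2 -0.14, 95% interval -0.90 to 0.62).

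The small leucine-rich proteoglycans, which space the fibrils of a transparent stroma, were lower in 11 of 13 cases, with a median difference of -1.73. Keratocan, encoded by Kera and made by keratocytes, had 10.41, 9.89, 8.13 and 10.91 in PN56 Klf5CN arrays, against 12.84, 12.79 and 12.78 in PN11 WT arrays (log2 -2.97, SE 0.54, adjusted p = 0.0023). Fmod (log2 -2.55, SE 0.59, adjusted p = 0.0079), Chad (log2 -2.37, SE 0.59, adjusted p = 0.011) and Aspn (log2 -2.23, SE 0.31, adjusted p = 0.00065) followed, and Podn was alike (log2 -0.18, 95% interval -0.58 to 0.21). Without PN11 WT replicate 2 the number lower was 7.

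Elastic microfibril genes were lower in 9 of 16 cases. Mfap2, a small glycoprotein of microfibrils, had 7.27, 6.22, 3.32 and 7.55 in PN56 Klf5CN arrays, against 11.12, 11.03 and 11.30 in PN11 WT arrays (log2 -5.06, SE 0.85, adjusted p = 0.0016), with replicate 3 at the floor. Its relative Mfap4 had 7.72, 6.89, 4.52 and 10.08 in PN56 Klf5CN arrays, against 11.70, 11.83 and 11.78 in PN11 WT arrays (log2 -4.47, SE 1.0, adjusted p = 0.0067). Replicate 4 was here nearest to the juvenile arrays and replicate 3 farthest below them. Fbn2, the fibrillin of growing tissue (log2 -4.66, SE 0.29, adjusted p = 1.4e-05), Fbln5 (log2 -3.69, SE 0.19, adjusted p = 5.9e-06) and Fbln2 (log2 -3.29, SE 0.30, adjusted p = 7.6e-05) fell too, while Efemp1 (log2 0.11, 95% interval -0.31 to 0.53) and Ltbp3 (log2 -0.30, 95% interval -0.83 to 0.23) were alike.

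Of 23 enzymes and chaperones that process collagen 14 were lower and 5 alike. The lysyl hydroxylase Plod1 (log2 -3.38, SE 0.25, adjusted p = 2.7e-05), the prolyl 3-hydroxylases P3h3 (log2 -3.48, SE 0.34, adjusted p = 9.9e-05) and P3h1 (log2 -3.16, SE 0.21, adjusted p = 1.6e-05), and the cross-linking oxidases Loxl1 (log2 -2.92, SE 0.36, adjusted p = 0.00036) and Lox (log2 -2.85, SE 0.51, adjusted p = 0.0022) fell most. The general foldases P4hb (log2 0.07, 95% interval -0.29 to 0.43) and Ppib (log2 -0.47, 95% interval -0.89 to -0.04) were alike. In the basement membrane 15 of 23 genes were lower and 6 alike. Nid1 (log2 -3.30, SE 0.28, adjusted p = 5.1e-05), Lama2 (log2 -3.19, SE 0.47, adjusted p = 0.00082), Lamb1 (log2 -2.11, SE 0.14, adjusted p = 1.9e-05) and Lamc1 (log2 -1.94, SE 0.13, adjusted p = 1.9e-05) fell, while Lama3 (log2 0.17, 95% interval -0.33 to 0.67) and Lamb3 (log2 0.18, 95% interval -0.22 to 0.59), chains of the laminin to which epithelium is anchored, were alike.

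Among matricellular proteins 8 of 18 were lower, 5 alike and 1 higher. Matn4 had 7.11, 5.93, 5.08 and 8.53 in PN56 Klf5CN arrays, against 11.59, 11.69 and 11.62 in PN11 WT arrays (log2 -4.97, SE 0.66, adjusted p = 0.00048), and Tnxb had 3.97, 3.34, 3.32 and 3.68 in PN56 Klf5CN arrays, against 7.67, 8.06 and 7.49 in PN11 WT arrays (log2 -4.16, SE 0.25, adjusted p = 1.1e-05). The member that rose was Tnc, the tenascin of healing wounds, at 11.22, 11.13, 9.73 and 10.33 in PN56 Klf5CN arrays and 9.01, 9.19 and 9.33 in PN11 WT arrays (log2 1.43, SE 0.33, adjusted p = 0.0075), and without PN56 Klf5CN replicate 3 a further member was higher, 2 in all. Fn1 (log2 -0.49, 95% interval -0.83 to -0.15) and Tgfbi (log2 0.27, 95% interval -0.14 to 0.69), both abundant in cornea, were alike.

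Genes that mark stromal cells were lower too. Of 14 tested 10 were lower (71.4%, against 13% of all genes), 0 higher and 0 alike. The summed signal of the list ran from 5880 to 26018 in PN56 Klf5CN arrays and from 40112 to 42747 in PN11 WT arrays. The number lower was 6 without PN11 WT replicate 2. Angptl7, a secreted protein of keratocytes (log2 -3.12, SE 0.49, adjusted p = 0.0012), and Pdgfrb (log2 -2.20, SE 0.53, adjusted p = 0.0092) were among them. Thy1 was at 6.87 ± 0.93 in PN56 Klf5CN corneas and 6.80 ± 0.40 in PN11 WT corneas (SD, n = 4 and 3). Of 14 tested factors of the mesenchyme around the eye, from which keratocytes descend, 10 were lower and 2 alike. Twist2 (log2 -3.61, SE 0.65, adjusted p = 0.0022), Prrx2 (log2 -2.96, SE 0.53, adjusted p = 0.0022), Twist1 (log2 -2.95, SE 0.56, adjusted p = 0.003) and Prrx1 (log2 -2.30, SE 0.16, adjusted p = 2.2e-05) fell most, and Foxc1, a factor needed for the anterior segment, was alike at 9.52, 9.51, 9.46 and 9.29 in PN56 Klf5CN arrays and 9.35, 9.51 and 9.32 in PN11 WT arrays (log2 0.05, 95% interval -0.21 to 0.32).

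**Figure D4:**
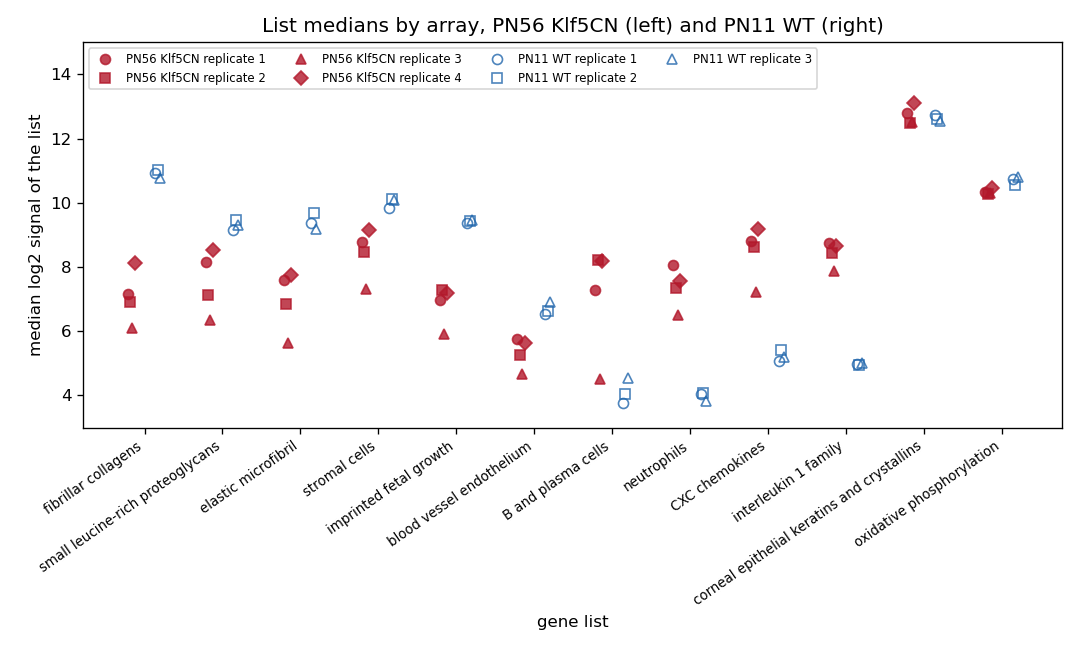
Median log2 signal over the tested genes of 12 lists on each PN56 Klf5CN array (filled, left) and each PN11 WT array (open, right). PN56 Klf5CN replicate 3 is the lowest of its group in the matrix, stromal, endothelial and immune lists, and the epithelial and the B and plasma cell lists overlap between the groups.

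The matrix-degrading enzymes and their inhibitors divided, with 6 of 16 higher (37.5%, against 7.27% of all genes), 7 lower (43.8%, against 13%) and 0 alike. With an array left out in turn, 4 to 5 were higher and 5 to 7 lower. Mmp13, a collagenase, had 8.59, 7.95, 6.48 and 8.66 in PN56 Klf5CN arrays and the floor in all PN11 WT arrays, at least 24.2-fold higher (log2 4.60, SE 0.47, adjusted p = 0.00014). Mmp3, or stromelysin, had 11.75, 11.27, 10.27 and 12.70 in PN56 Klf5CN arrays, against 8.90, 9.28 and 8.54 in PN11 WT arrays (log2 2.59, SE 0.47, adjusted p = 0.0024). Mmp9 (log2 2.19, SE 0.46, adjusted p = 0.0048) and the macrophage elastase Mmp12 (log2 2.13, SE 0.31, adjusted p = 0.00082) rose too. Mmp23 (log2 -3.38, SE 0.37, adjusted p = 0.0002), Mmp2 (log2 -2.17, SE 0.68, adjusted p = 0.029) and the inhibitor Timp3 (log2 -2.06, SE 0.19, adjusted p = 8.4e-05) fell.

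Imprinted genes of the fetal growth network, which are high in growing tissue of young animals and decline after birth in many organs, were lower in 13 of 18 cases. The share lower was 72.2%, against 13% of all genes. Of the list 4 were alike (22.2%, against 54.4%) and 0 higher, and the median difference was -2.35. Dlk1, which encodes a membrane protein related to Notch ligands, had 5.22, 4.71, 4.11 and 4.44 in PN56 Klf5CN arrays, against 10.20, 10.11 and 10.12 in PN11 WT arrays (log2 -5.52, SE 0.24, adjusted p = 2.8e-06). Rian, a noncoding RNA of the same imprinted domain, had 3.94, 4.73, 3.32 and 4.87 in PN56 Klf5CN arrays, against 9.50, 9.41 and 9.49 in PN11 WT arrays (log2 -5.25, SE 0.35, adjusted p = 1.6e-05). Igf2, the fetal growth factor, had 7.01, 7.12, 7.21 and 7.36 in PN56 Klf5CN arrays, against 10.76, 10.77 and 10.73 in PN11 WT arrays (log2 -3.58, SE 0.12, adjusted p = 7e-07). In all 3 the juvenile arrays lay close together and every mutant array lay far below them. Peg3 (log2 -4.03, SE 0.44, adjusted p = 0.00019), Meg3 (log2 -3.46, SE 0.57, adjusted p = 0.0015) and Cdkn1c, an inhibitor of cell division (log2 -3.35, SE 0.21, adjusted p = 1.3e-05), fell as well. Gnas (log2 -0.61, 95% interval -0.91 to -0.30), Mest (log2 0.29, 95% interval -0.05 to 0.64), Igf2r (log2 -0.33, 95% interval -0.76 to 0.11) and Impact (log2 -0.15, 95% interval -0.49 to 0.19) were alike, though Impact rose on another probe set (log2 1.39, adjusted p = 0.013).

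Of 24 tested Wnt ligands, receptors and modulators 8 were lower, 1 was higher and 8 were alike. The shares lower, higher and alike were 33.3%, 4.2% and 33.3%, against 13%, 7.27% and 54.4% of all genes. The secreted inhibitors Dkk2 (log2 -3.49, SE 0.26, adjusted p = 2.9e-05) and Dkk1 (log2 -3.17, SE 0.32, adjusted p = 0.00014) and the ligands Wnt5a (log2 -2.67, SE 0.19, adjusted p = 2.2e-05) and Wnt6 (log2 -2.05, SE 0.28, adjusted p = 0.00051) fell, Frzb rose (log2 1.58, SE 0.30, adjusted p = 0.0032; 3 members were higher without PN56 Klf5CN replicate 3), and Wnt4 (log2 -0.47, 95% interval -0.87 to -0.08), Fzd6 (log2 0.36, 95% interval 0.05 to 0.67) and Fzd1 (log2 -0.24, 95% interval -0.72 to 0.24) were alike, though Fzd1 rose on another probe set (log2 2.12, adjusted p = 0.0027).

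Metabolic genes differed by branch. Of 44 tested enzymes of xenobiotic metabolism, which handle foreign compounds and retinoids, 20 were lower, 2 higher and 11 alike, with a median difference of -0.88. The share lower was 45.5%, against 13% of all genes. Aldh1a7 (log2 -2.74, SE 0.27, adjusted p = 0.00011), Cyp2b19 (log2 -2.70, SE 0.28, adjusted p = 0.00016) and Aldh1a1, which makes retinoic acid and had 8.10, 7.98, 7.87 and 8.49 in PN56 Klf5CN arrays and 10.73, 10.70 and 10.34 in PN11 WT arrays (log2 -2.48, SE 0.17, adjusted p = 2.2e-05), fell furthest. The abundant Gsta4 (log2 0.25, 95% interval -0.21 to 0.72) and Adh1 (log2 -0.34, 95% interval -0.82 to 0.13) were alike, and the 2 that rose were Akr1b8 (log2 1.29, SE 0.21, adjusted p = 0.0013) and Aldh1a3, another retinaldehyde dehydrogenase (log2 1.22, SE 0.21, adjusted p = 0.0018).

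In sterol and fatty acid synthesis 4 of 21 genes were higher (19%, against 7.27% of all genes), 0 lower and 9 alike. The 4 were Cyp51 (log2 1.72, SE 0.19, adjusted p = 0.00021), Idi1 (log2 1.67, SE 0.20, adjusted p = 0.00034), Sc5d (log2 1.44, SE 0.13, adjusted p = 6.3e-05) and Fdft1 (log2 1.19, SE 0.31, adjusted p = 0.015), all of the cholesterol branch. The number was 7 without PN56 Klf5CN replicate 2. In glycolysis 2 of 16 were higher (12.5%, against 7.27% of all genes), 0 lower and 6 alike. The 2 catalyse regulated early steps of the pathway. Hk2, a hexokinase, had 9.74, 9.96, 9.07 and 9.77 in PN56 Klf5CN arrays, against 7.10, 6.97 and 7.33 in PN11 WT arrays (log2 2.50, SE 0.21, adjusted p = 5e-05), and Pfkp, a phosphofructokinase, had 9.03, 9.31, 8.40 and 8.59 in PN56 Klf5CN arrays, against 6.64, 6.59 and 6.71 in PN11 WT arrays (log2 2.19, SE 0.21, adjusted p = 0.00011). Of 224 tested solute carriers 23 were higher (10.3%), 24 lower (10.7%) and 109 alike (48.7%), near the 7.27%, 13% and 54.4% of all genes. Slc26a4, an anion exchanger (log2 4.71, SE 0.40, adjusted p = 5.1e-05), and Slc5a1, a sodium glucose cotransporter (log2 3.77, SE 0.15, adjusted p = 1.7e-06), rose most, and Slc26a7 (log2 -2.98, SE 0.34, adjusted p = 0.00023) and the amino acid carrier Slc38a4 (log2 -2.97, SE 0.19, adjusted p = 1.5e-05) fell most. Of 14 clock genes 1 was called (7.1%, against 20.3% of all genes), Hlf, which was lower (log2 -1.50, SE 0.33, adjusted p = 0.0062). The 6 alike were 42.9%, against 54.4% of all genes, and 7 met neither condition. Without PN56 Klf5CN replicate 1 or 3 the number lower was 2.

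**Figure D5:**
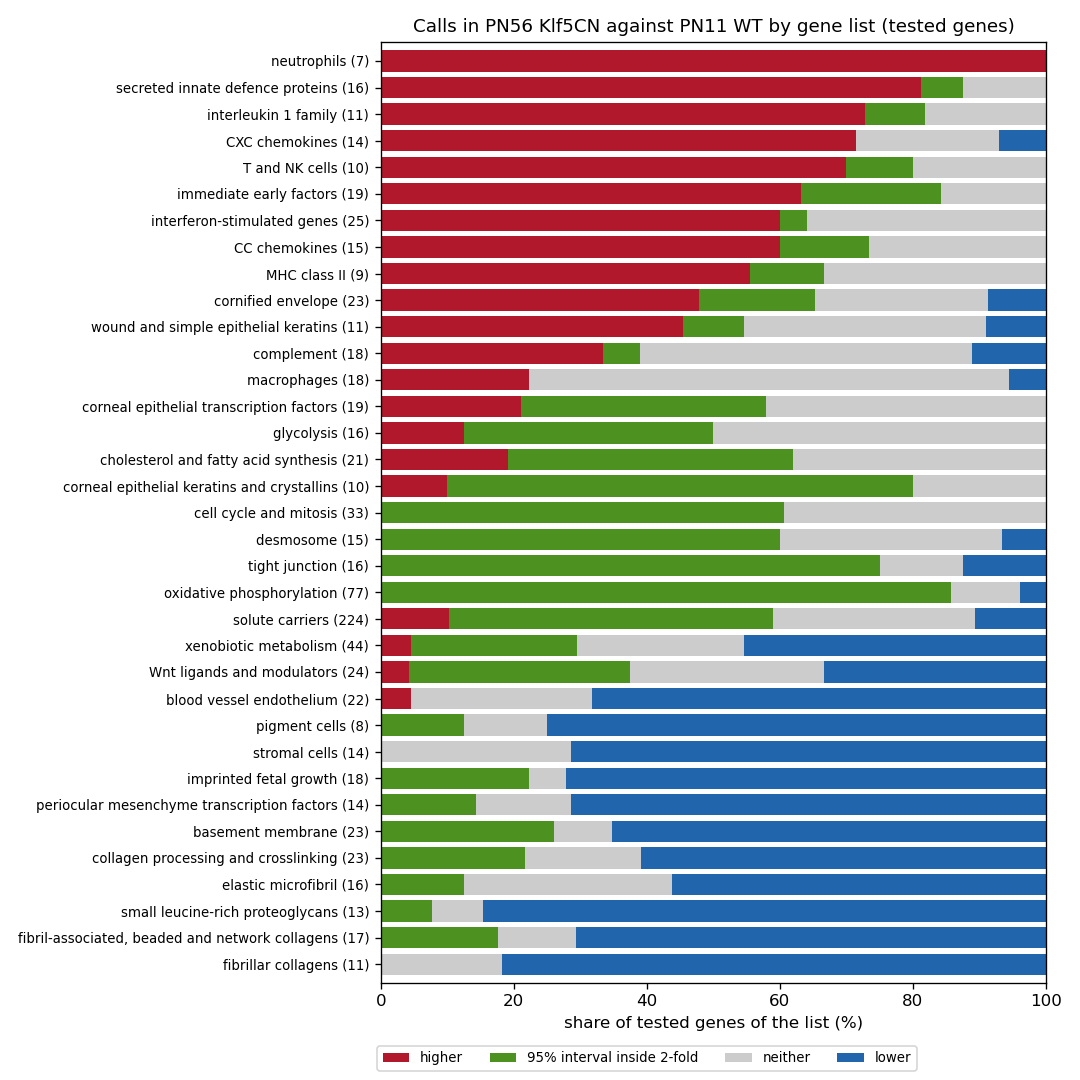
Share of the tested genes of 35 lists called higher, alike (95% interval inside 2-fold), neither, or lower in PN56 Klf5CN against PN11 WT corneas, with the number tested in parentheses. Neutrophil, defence and chemokine lists stand at the higher end and matrix lists at the lower end. More than 60% of the tested genes are alike in the tight junction, respiratory and cell cycle lists. The share alike is 54.4% over all genes and 73.2% over the brightest bin.

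Genes of squamous differentiation were often higher in the adult mutant. Of 37 genes of the cornified envelope on the array, the protein shell of terminally differentiated squamous cells, 23 were tested. Of these 11 were higher (47.8%, against 7.27% of all genes), 2 lower (8.7%, against 13%) and 4 alike (17.4%, against 54.4%). Of the 23 tested, 13 had no Present call in PN11 WT corneas and 5 had none in PN56 Klf5CN corneas. The 14 too dim to test included 8 Lce1 genes, Flg and Hrnr, and Sprr2f, Sprr2d, Lce3a and Lce3c entered only through the mutant arrays. Sprr2f, a small proline-rich envelope protein, had 12.19, 11.40, 10.81 and 11.57 in PN56 Klf5CN arrays and was at the floor of 3.32 in all 3 PN11 WT arrays, at least 288-fold higher (log2 8.17, SE 0.27, adjusted p = 6e-07). Its neighbour on the chromosome, Sprr2d, had 11.40, 10.02, 9.48 and 9.63 in PN56 Klf5CN arrays and the floor in all PN11 WT arrays, at least 112-fold higher (log2 6.81, SE 0.40, adjusted p = 1e-05). Sprr1a had 12.37, 12.05, 11.92 and 12.24 in PN56 Klf5CN arrays, against 6.32, 5.54 and 5.71 in PN11 WT arrays (log2 6.29, SE 0.20, adjusted p = 5.5e-07). The 4 mutant arrays of Sprr1a lay close together, far above the juvenile ones. Lce3a, an envelope protein of wounded skin, had 7.40, 7.50, 10.52 and 9.77 in PN56 Klf5CN arrays and the floor in all PN11 WT arrays, at least 44.5-fold higher (log2 5.48, SE 0.70, adjusted p = 0.00043), and was highest in replicates 3 and 4. Lce3c was likewise at the floor in all PN11 WT arrays, at least 9.04-fold higher (SE 0.999, adjusted p = 0.03), with 1 Present call in the mutant. Not all of the envelope rose. Krtdap (log2 -1.83, SE 0.24, adjusted p = 0.00046) and Cst6 (log2 -1.38, SE 0.33, adjusted p = 0.0093) fell, and Scel, a precursor of the envelope that is bright in cornea, was alike (log2 0.08, 95% interval -0.27 to 0.43), as were Casp14 (log2 0.11, 95% interval -0.32 to 0.54) and Lor (log2 0.32, 95% interval -0.32 to 0.95).

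The promoters of Sprr2d and Sprr2f, which were at the floor in every juvenile array and bright in every mutant one, are shown from RefSeq (GRCm38.p6, plus strand, 250 bases before to 50 after the annotated start). Sprr2d lies at chr3:92338890-92339189 and Sprr2f at chr3:92364937-92365236. Capitals mark TATAAA, the TATA box letters, which both hold on the same strand at the same place, from 29 bases before the start. These letters were chosen after the values were seen, and on either strand 13.62% of 32851 promoters hold them.
Sprr2d: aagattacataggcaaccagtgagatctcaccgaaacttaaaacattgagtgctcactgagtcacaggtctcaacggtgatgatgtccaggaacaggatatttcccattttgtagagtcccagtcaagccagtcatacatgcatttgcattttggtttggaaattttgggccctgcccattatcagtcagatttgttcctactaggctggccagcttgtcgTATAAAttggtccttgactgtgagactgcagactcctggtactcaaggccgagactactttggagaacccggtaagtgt
Sprr2f: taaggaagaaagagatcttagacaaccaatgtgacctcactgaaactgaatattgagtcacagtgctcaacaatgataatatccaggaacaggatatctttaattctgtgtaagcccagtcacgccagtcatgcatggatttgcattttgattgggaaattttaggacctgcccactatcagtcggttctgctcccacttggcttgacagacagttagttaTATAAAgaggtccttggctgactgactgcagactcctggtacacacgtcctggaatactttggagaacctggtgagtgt

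Keratins of wounded and simple epithelia rose in 5 of 11 cases (45.5%, against 7.27% of all genes), with 1 lower and 1 alike. The 1 lower was Krt75, whose call was lost without PN56 Klf5CN replicate 3 or PN11 WT replicate 1. Krt16, a keratin of activated keratinocytes, had 10.47, 10.46, 11.04 and 11.37 in PN56 Klf5CN arrays, against 6.91, 6.38 and 6.93 in PN11 WT arrays (log2 4.09, SE 0.25, adjusted p = 1.1e-05). Krt23 (log2 3.61, SE 0.33, adjusted p = 8.1e-05), Krt17 (log2 2.56, SE 0.22, adjusted p = 5.3e-05), Krt18 (log2 1.87, SE 0.28, adjusted p = 0.00085) and Krt8 (log2 1.44, SE 0.33, adjusted p = 0.0071) rose, and Krt7 was alike (log2 -0.09, 95% interval -0.67 to 0.50). Krt76 was too dim to test, and the other 3 mucosal keratins were higher, with Krt13 of conjunctiva and other mucosae at 11.42 ± 0.68 in PN56 Klf5CN corneas and 9.82 ± 0.29 in PN11 WT corneas (SD, n = 4 and 3, log2 1.59, SE 0.33, adjusted p = 0.0045). Krt4 (log2 1.11, SE 0.39, adjusted p = 0.046) and Krt78 (log2 1.003, SE 0.14, adjusted p = 0.00066) passed only just, and the number higher was 1 without PN56 Klf5CN replicate 2, PN11 WT replicate 1 or PN11 WT replicate 3. Of the epidermal keratins Krt80 rose (log2 1.23, SE 0.16, adjusted p = 0.00046) and Krt10 was alike (log2 -0.48, 95% interval -0.87 to -0.08), and Krt1 was at 5.69 ± 0.39 in PN56 Klf5CN corneas and 6.37 ± 0.15 in PN11 WT corneas.

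Among 10 surface mucins and uroplakins 3 were higher (30%, against 7.27% of all genes), 1 was lower (10%, against 13%) and 5 were alike (50%, against 54.4%). Psca, a membrane-anchored protein of surface cells, had 10.89, 10.30, 11.66 and 11.40 in PN56 Klf5CN arrays, against 6.54, 6.38 and 5.79 in PN11 WT arrays (log2 4.83, SE 0.31, adjusted p = 1.5e-05). The membrane mucins Muc4 (log2 1.68, SE 0.14, adjusted p = 5.4e-05) and Muc15 (log2 1.15, SE 0.20, adjusted p = 0.0019) rose, while Muc20 (log2 0.13, 95% interval -0.14 to 0.40) and Upk1b (log2 -0.04, 95% interval -0.39 to 0.32) were alike. The gel-forming mucin Muc5ac of goblet cells had 6.35, 3.32, 8.09 and 6.40 in PN56 Klf5CN arrays and the floor in all PN11 WT arrays, at least 6.6-fold higher (adjusted p = 0.034), so that replicate 2 overlapped with the juvenile corneas. Of 11 goblet cell markers on the array 5 were tested, 3 of them without a Present call in PN11 WT corneas. Tff2, Tff3, Spdef, Foxa3, Gcnt3 and Clca1 were too dim to test. Of the 5 tested 3 were higher (60%, against 7.27% of all genes). They were Muc5ac, Muc5b (log2 1.59, SE 0.46, adjusted p = 0.021) and Fcgbp (log2 1.004, SE 0.21, adjusted p = 0.0051). The number higher was 1 without PN11 WT replicate 1 and 0 without PN11 WT replicate 3. Fcgbp had 0 Present calls in both groups. Agr2 was alike (log2 -0.20, 95% interval -0.81 to 0.41). Clca3a2, a secreted protein of mucous and squamous epithelia, was at the floor in all PN11 WT arrays and at 11.44, 11.45, 10.23 and 10.17 in PN56 Klf5CN arrays, at least 181-fold higher (log2 7.50, SE 0.34, adjusted p = 2.8e-06).

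Genes of innate immunity were often higher in the adult mutant as well. Among 14 tested CXC chemokines, small proteins that draw leukocytes along a gradient, 10 were higher, 1 was lower and 0 were alike. The share higher was 71.4%, against 7.27% of all genes, and the share lower 7.1%, against 13%. Cxcl1, Cxcl2, Cxcl3, Cxcl5 and Ppbp, whose products attract neutrophils through the receptor Cxcr2, all rose. The promoters of Cxcl1, Cxcl2 and Cxcl3 are shown from RefSeq (GRCm38.p6, plus strand, 250 bases before to 50 after the start) because the 3 genes lie together on the chromosome and moved together. They lie at chr5:90890995-90891294, chr5:90903649-90903948 and chr5:90785851-90786150. Capitals mark a match to a pattern that NF-kB proteins bind, these 10 letters with any base allowed at position 5, which begins 71, 97 and 73 bases before the start. These letters were chosen after the values were seen. On either strand 0.41% of 32851 promoters hold them, and among the 10 tested CXC chemokine genes matched in the table Cxcl1, Cxcl2 and Cxcl3 did.
Cxcl1: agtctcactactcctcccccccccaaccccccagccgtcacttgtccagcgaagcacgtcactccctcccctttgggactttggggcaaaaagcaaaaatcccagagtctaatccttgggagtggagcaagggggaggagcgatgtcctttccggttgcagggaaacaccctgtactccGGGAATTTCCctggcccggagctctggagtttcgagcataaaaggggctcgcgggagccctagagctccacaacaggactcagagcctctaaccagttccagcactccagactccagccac
Cxcl2: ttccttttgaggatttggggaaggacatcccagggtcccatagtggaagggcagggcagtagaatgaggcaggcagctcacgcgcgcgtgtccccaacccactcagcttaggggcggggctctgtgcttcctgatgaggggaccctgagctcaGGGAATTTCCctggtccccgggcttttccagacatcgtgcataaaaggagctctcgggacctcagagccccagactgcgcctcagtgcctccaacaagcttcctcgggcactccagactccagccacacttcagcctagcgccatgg
Cxcl3: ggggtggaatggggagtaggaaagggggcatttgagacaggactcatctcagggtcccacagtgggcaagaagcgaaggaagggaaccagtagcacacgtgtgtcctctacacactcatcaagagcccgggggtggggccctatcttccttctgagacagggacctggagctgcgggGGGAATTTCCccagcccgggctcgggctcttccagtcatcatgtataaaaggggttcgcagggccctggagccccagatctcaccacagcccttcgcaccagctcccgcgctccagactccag

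Ppbp had 12.16, 10.74, 9.79 and 10.44 in PN56 Klf5CN arrays, against 3.32, 3.32 and 3.68 in PN11 WT arrays (log2 7.34, SE 0.46, adjusted p = 1.3e-05). Cxcl3 had 11.06, 10.23, 9.42 and 9.82 in PN56 Klf5CN arrays and the floor in all PN11 WT arrays, at least 112-fold higher (log2 6.81, SE 0.33, adjusted p = 4.5e-06). Cxcl2 had 10.08, 8.81, 8.51 and 9.91 in PN56 Klf5CN arrays, against 3.32, 3.41 and 3.32 in PN11 WT arrays (log2 5.98, SE 0.37, adjusted p = 1.3e-05). For all 3 every mutant array stood far above the juvenile ones, with replicate 1 highest and replicate 3 lowest. Cxcl5 (log2 4.49, SE 0.40, adjusted p = 7e-05), Cxcl17 (log2 3.90, SE 0.24, adjusted p = 1.3e-05) and Cxcl1 (log2 2.91, SE 0.42, adjusted p = 0.0008) also rose. The member that fell was Pf4, a chemokine of platelets and macrophages (log2 -1.81, SE 0.49, adjusted p = 0.016), a call lost without PN11 WT replicate 2 or 3. Cxcl12, made by stromal cells, was at 8.60 ± 0.997 in PN56 Klf5CN corneas and 8.60 ± 0.48 in PN11 WT corneas (SD, n = 4 and 3) and met neither condition. Of 15 CC chemokines 9 were higher (60%, against 7.27% of all genes), 2 were alike and 0 lower. Those higher included Ccl8 (log2 5.28, SE 0.66, adjusted p = 0.00038), Ccl24 (at the floor in all PN11 WT arrays, at least 12.4-fold, adjusted p = 0.001) and Ccl9 (log2 2.54, SE 0.56, adjusted p = 0.0065). The number higher was 4 without PN11 WT replicate 1 or 3, and 5 without PN11 WT replicate 2 or PN56 Klf5CN replicate 1 or 2.

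In the interleukin 1 family, which carries alarm from damaged epithelium, 8 of 11 genes were higher, 0 lower and 1 alike, with a median difference of 2.71. The share higher was 72.7%, against 7.27% of all genes. Il1f9 (log2 5.43, SE 0.25, adjusted p = 3e-06), Il1a (log2 4.82, SE 0.27, adjusted p = 8.4e-06), Il1f6 (log2 4.78, SE 0.23, adjusted p = 4e-06), Il1b (log2 4.16, SE 0.36, adjusted p = 5.6e-05) and Il1f8 (log2 2.79, SE 0.32, adjusted p = 0.00024), all ligands, rose most. Il1a had 8.82, 8.76, 9.25 and 8.79 in PN56 Klf5CN arrays, against 4.52, 3.43 and 4.31 in PN11 WT arrays, and replicate 3 was here the highest of its group. The receptor antagonist Il1rn, which blocks the same receptor, was alike at 7.57, 7.74, 6.94 and 6.91 in PN56 Klf5CN arrays and 7.40, 6.99 and 7.88 in PN11 WT arrays (log2 -0.14, 95% interval -0.75 to 0.48).

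Secreted defence proteins were higher in 13 of 16 cases (81.2%, against 7.27% of all genes), with 0 lower, 1 alike and a median difference of 3.28. Sftpd, the lectin surfactant protein D, had 10.91, 11.21, 9.71 and 10.81 in PN56 Klf5CN arrays, against 4.20, 4.81 and 3.32 in PN11 WT arrays (log2 6.55, SE 0.41, adjusted p = 1.3e-05). Wfdc18 (log2 6.13, SE 0.41, adjusted p = 1.6e-05), Pip (at the floor in all PN11 WT arrays, at least 41.4-fold, adjusted p = 0.00017), and the iron-binding proteins Ltf (log2 5.34, SE 0.23, adjusted p = 2.8e-06) and Lcn2 (log2 5.20, SE 0.23, adjusted p = 2.8e-06) rose, and Defb1, a defensin present in resting epithelium, was alike (log2 -0.17, 95% interval -0.50 to 0.16). Lcn2 had 11.90, 12.19, 11.27 and 12.32 in PN56 Klf5CN arrays, against 6.61, 6.77 and 6.78 in PN11 WT arrays, so that both groups expressed it and did not overlap.

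Of 25 interferon-stimulated genes 15 were higher (60%, against 7.27% of all genes), 0 lower and 1 alike. Oasl1 had 10.17, 10.17, 10.45 and 10.12 in PN56 Klf5CN arrays, against 5.29, 5.49 and 5.65 in PN11 WT arrays (log2 4.75, SE 0.14, adjusted p = 5.5e-07), and the mutant arrays lay close together. Oas3 (log2 3.05, SE 0.42, adjusted p = 0.00064), Oas2 (log2 3.00, SE 0.38, adjusted p = 0.0004), Zbp1 (log2 2.51, SE 0.21, adjusted p = 5.5e-05) and Igtp (log2 2.27, SE 0.39, adjusted p = 0.0018) rose, and Ifit2 was alike (log2 0.29, 95% interval -0.30 to 0.89). Immediate early factors, which respond within minutes to growth factors or stress, were higher in 12 of 19 cases (63.2%), 0 lower and 4 alike. Socs3, a feedback inhibitor of cytokine signalling (log2 3.79, SE 0.26, adjusted p = 1.8e-05), Fos (log2 1.86, SE 0.18, adjusted p = 0.00011), Atf3 (log2 1.83, SE 0.27, adjusted p = 0.00078) and Dusp1 (log2 1.75, SE 0.31, adjusted p = 0.0023) rose, while Fosl2 (log2 0.55, 95% interval 0.19 to 0.90), Jund (log2 -0.04, 95% interval -0.79 to 0.71) and Egr1 (log2 0.24, 95% interval -0.51 to 0.99) were alike.

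Antigen presentation of class II rose in 5 of 9 genes (55.6%, against 7.27% of all genes), with 0 lower and 1 alike. Ctss (log2 2.13, SE 0.29, adjusted p = 0.00061), Cd74 (log2 2.06, SE 0.35, adjusted p = 0.0017) and H2-Ab1 (log2 1.77, SE 0.32, adjusted p = 0.0025) led them, and H2-DMa was alike (log2 -0.12, 95% interval -0.92 to 0.69). In complement 6 of 18 were higher (33.3%, against 7.27% of all genes), 2 lower (11.1%, against 13%) and 1 alike. Cfb (log2 1.37, SE 0.34, adjusted p = 0.01) rose, the regulators Cd59a (log2 -1.53, SE 0.25, adjusted p = 0.0013) and Cd55 (log2 -1.51, SE 0.24, adjusted p = 0.0013) fell, and C2 was alike (log2 -0.15, 95% interval -0.73 to 0.43). The number higher was 1 without PN11 WT replicate 3, 3 without PN11 WT replicate 2, and 2 without PN11 WT replicate 1 or PN56 Klf5CN replicate 1, 2 or 4, and the number lower was 4 and 5 without PN56 Klf5CN replicates 1 and 4.

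Markers of immune cells rose unevenly. Of 12 neutrophil markers on the array 7 were tested and these 7 were higher (100%, against 7.27% of all genes). Mmp8, Ngp, Camp, Elane and Mpo were too dim to test in either group. The summed signal of the 7 ran from 2216 to 8560 in PN56 Klf5CN arrays and from 210 to 349 in PN11 WT arrays. S100a9 had 11.23, 10.90, 9.82 and 11.74 in PN56 Klf5CN arrays, against 4.96, 5.49 and 6.46 in PN11 WT arrays (log2 5.29, SE 0.46, adjusted p = 5.6e-05), and its partner S100a8 (log2 3.78, SE 0.43, adjusted p = 0.00022) is also made by activated keratinocytes. The granulocyte receptors Csf3r (log2 3.09, SE 0.34, adjusted p = 0.00018) and Cxcr2 (log2 2.01, SE 0.32, adjusted p = 0.0012) were dimmer, and Cxcr2 had 1 Present call in the mutant. Of 18 macrophage markers 4 were higher (22.2%, against 7.27% of all genes), 1 lower (5.6%, against 13%) and 0 alike. Their sums overlapped at 2689 to 8943 in PN56 Klf5CN arrays and 3150 to 4001 in PN11 WT arrays. Cd14 (log2 3.08, SE 0.32, adjusted p = 0.00015), Itgam (log2 2.46, SE 0.21, adjusted p = 5.4e-05), Ptprc, the common leukocyte antigen CD45 (log2 2.08, SE 0.38, adjusted p = 0.0024), and Cd68 (log2 1.13, SE 0.16, adjusted p = 0.00072) rose, Cx3cr1 of resident macrophages fell (log2 -1.40, SE 0.33, adjusted p = 0.0086), and Adgre1 and Csf1r met neither condition (6.97 ± 0.79 and 10.08 ± 1.05 in PN56 Klf5CN corneas, 6.62 ± 0.32 and 9.84 ± 0.20 in PN11 WT corneas, SD, n = 4 and 3). Without PN56 Klf5CN replicate 3, 10 macrophage markers were higher, and without PN56 Klf5CN replicate 4, 2 were lower.

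Of 13 markers of type 2 macrophages and eosinophils on the array 10 were tested, and 6 of these were higher (60%, against 7.27% of all genes). Epx, Prg2 and Siglecf were too dim to test. Chil4 had 11.32, 11.65, 10.57 and 9.67 in PN56 Klf5CN arrays, against 3.32, 4.01 and 3.32 in PN11 WT arrays (log2 7.25, SE 0.42, adjusted p = 1e-05), Chil3 was at the floor in all PN11 WT arrays and at least 33.3-fold higher in PN56 Klf5CN corneas (log2 5.06, SE 0.81, adjusted p = 0.0013), and Arg1 was bright in both groups (log2 2.60, SE 0.21, adjusted p = 4.2e-05). Of 15 T and NK cell markers on the array 10 were tested, 7 of which had no Present call in PN11 WT corneas. Of the tested 7 were higher (70%, against 7.27% of all genes) and 1 alike. Cd3e, Cd4, Cd8b1, Cd28 and Gzma were too dim to test. Among those higher were Gzmb (at least 7.93-fold, adjusted p = 0.0003) and Cd3g (at least 6.67-fold, adjusted p = 4.3e-05), both at the floor in all PN11 WT arrays. Summed signals of the tested markers were 476 to 789 in PN56 Klf5CN arrays and 245 to 306 in PN11 WT arrays.

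Plasma cell transcripts separated the mutant corneas from each other. Igkv8-30, an immunoglobulin light chain segment, had 12.30, 12.58, 7.83 and 13.43 in PN56 Klf5CN arrays and the floor in all PN11 WT arrays, at least 296-fold higher (log2 8.21, SE 1.10, adjusted p = 0.00051). Jchain, which joins secreted antibodies, had 10.28, 10.79, 6.97 and 10.53 in PN56 Klf5CN arrays and the floor in all PN11 WT arrays, at least 80-fold higher (SE 0.79, adjusted p = 0.00037). Replicate 3 was far below the other mutant arrays in both and still above the juvenile ones. The heavy chain Ighm was also lowest in replicate 3 among the mutant arrays, with 11.55, 12.10, 9.02 and 13.01 in PN56 Klf5CN arrays and 6.17, 6.20 and 6.10 in PN11 WT arrays (log2 5.26, SE 0.75, adjusted p = 0.0007), and all 7 of its tested probe sets were called higher. Of 10 B and plasma cell markers on the array 5 were tested, 3 of them without a Present call in PN11 WT corneas. Of the tested 3 were higher (60%, against 7.27% of all genes).

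Mast cell markers moved in both directions. Of 11 tested 3 were higher (27.3%, against 7.27% of all genes) and 4 lower (36.4%, against 13%). The proteases of connective tissue mast cells Mcpt4 (log2 -3.21, SE 0.41, adjusted p = 0.0004), Cpa3 (log2 -2.18, SE 0.33, adjusted p = 0.0009), Tpsb2 (log2 -2.08, SE 0.26, adjusted p = 0.00035) and Cma1 (log2 -1.98, SE 0.32, adjusted p = 0.0014) fell. Mcpt1 (log2 3.21, SE 0.78, adjusted p = 0.01) and Mcpt2 (at the floor in all PN11 WT arrays, at least 9.23-fold, adjusted p = 0.0014), proteases of mucosal mast cells, rose.

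Markers of blood endothelium were lower in 15 of 22 cases (68.2%, against 13% of all genes), 1 was higher (4.5%, against 7.27%) and 0 were alike. Their sums did not overlap, at 851 to 1891 in PN56 Klf5CN arrays and 3461 to 3784 in PN11 WT arrays. Erg (log2 -3.12, SE 0.18, adjusted p = 1e-05), Aplnr (log2 -3.02, SE 0.40, adjusted p = 0.00051), Ramp2 (log2 -2.85, SE 0.29, adjusted p = 0.00015) and Emcn (log2 -2.76, SE 0.27, adjusted p = 0.0001) fell, Kdr, the main receptor of VEGF, fell (log2 -1.78, SE 0.25, adjusted p = 0.00063), and Pecam1 (CD31) was at 5.90, 5.45, 3.34 and 3.32 in PN56 Klf5CN arrays and 6.14, 6.09 and 6.31 in PN11 WT arrays (log2 -1.68, SE 0.62, adjusted p = 0.056). The member that rose was Flt1, a VEGF receptor whose soluble form binds and holds back VEGF, at 8.99, 9.33, 8.04 and 9.19 in PN56 Klf5CN arrays and 5.24, 5.74 and 4.64 in PN11 WT arrays (log2 3.68, SE 0.34, adjusted p = 8.6e-05). The files do not tell its membrane from its soluble form. Among 5 tested lymph vessel markers 2 were lower (40%, against 13% of all genes), 0 higher and 2 alike (40%, against 54.4%). Mmrn1 (log2 -1.72, SE 0.47, adjusted p = 0.017) and Flt4 (log2 -1.03, SE 0.37, adjusted p = 0.049) fell, and Flt4 had 0 Present calls in both groups. The number lower was 0 without PN11 WT replicate 2 or 3 and 1 without PN11 WT replicate 1 or PN56 Klf5CN replicate 1, 2 or 3. Pdpn (log2 0.43, 95% interval 0.16 to 0.71) and Reln (log2 0.12, 95% interval -0.69 to 0.93) were alike, and Lyve1 met neither condition. Summed signals of the 5 overlapped, at 2090 to 2714 in PN56 Klf5CN arrays and 1908 to 2146 in PN11 WT arrays.

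Markers of tissues next to the cornea were measured as well, and the source of their transcripts was not tested. Beside their counts, 13% of all genes were lower, 7.27% higher and 54.4% alike. Lens crystallins were present unevenly in the PN11 WT arrays, where Cryga had 10.11, 6.39 and 10.55, and Cryga was at the floor in all PN56 Klf5CN arrays, at least 51.8-fold lower (log2 -5.69, SE 0.83, adjusted p = 0.00078). The summed signal of the 16 tested lens genes overlapped between groups, at 838 to 6254 in PN56 Klf5CN arrays and 2630 to 19110 in PN11 WT arrays, and 4 were lower. The number lower was 10, 2 and 1 without PN11 WT replicates 2, 1 and 3, and 8 without PN56 Klf5CN replicate 4. Of 7 photoreceptor markers Gnat1 was higher (log2 3.66, SE 0.74, adjusted p = 0.0041), 2 were without PN56 Klf5CN replicate 3, with sums of 284 to 2522 in PN56 Klf5CN arrays and 165 to 369 in PN11 WT arrays. Of 8 pigment cell markers 6 were lower and 1 was alike, with Tyrp1 (log2 -2.24, SE 0.40, adjusted p = 0.0021) and Tyr (log2 -2.22, SE 0.28, adjusted p = 0.00038) at the head. The smooth muscle marker Acta2 was alike (log2 0.17, 95% interval -0.34 to 0.69) and the pericyte marker Rgs5 fell (log2 -2.20, SE 0.27, adjusted p = 0.00032), and 2 of 9 muscle and myofibroblast genes were lower. Of 5 tested skeletal muscle genes Myh1 (at the floor in all PN56 Klf5CN arrays, at least 3.51-fold lower, adjusted p = 0.00033) and Myh2 (log2 -1.71, SE 0.24, adjusted p = 0.00066) were lower and 2 were alike. Of 11 genes of Schwann cells 4 were lower, 1 was higher and 3 were alike, with Sox10 at 4.54 ± 1.37 in PN56 Klf5CN corneas and 6.34 ± 0.14 in PN11 WT corneas (log2 -1.80, SE 0.62, adjusted p = 0.043), and the number lower was 0 without PN56 Klf5CN replicate 3 or PN11 WT replicate 2 and 7 without PN56 Klf5CN replicate 4. Among fat cell markers Fabp4 rose (log2 1.51, SE 0.15, adjusted p = 0.00013) and Lpl (log2 -2.71, SE 0.36, adjusted p = 0.00046) and Cd36 (log2 -1.55, SE 0.30, adjusted p = 0.0035) fell. Alas2, the 1 erythroid marker tested, was lower (log2 -1.52, SE 0.37, adjusted p = 0.0097).

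The corneal endothelium, the pump layer behind the stroma, was mixed. Of 9 tested genes 4 were lower (44.4%, against 13% of all genes), 2 were higher (22.2%, against 7.27%) and 1 was alike (11.1%, against 54.4%). The collagens of its membrane, Col8a1 (log2 -2.12, SE 0.20, adjusted p = 8e-05) and Col8a2 (log2 -1.55, SE 0.23, adjusted p = 0.00077), and the water channel Aqp1 (log2 -1.22, SE 0.27, adjusted p = 0.0068) fell, the transporter Slc4a11 was alike at 9.31, 9.44, 10.20 and 9.91 in PN56 Klf5CN arrays and 9.02, 9.69 and 9.75 in PN11 WT arrays (log2 0.23, 95% interval -0.33 to 0.79), and the carbonic anhydrases Car12 (log2 2.34, SE 0.24, adjusted p = 0.00013) and Car2 (log2 2.23, SE 0.44, adjusted p = 0.0037) rose. Neither carbonic anhydrase is confined to that layer. Of 6 tested genes of cartilage and sclera 3 were lower, Col2a1, Chad and Cnmd (log2 -1.07, SE 0.39, adjusted p = 0.05), and Sox9 was higher (log2 1.04, SE 0.13, adjusted p = 0.0004), a call lost without PN11 WT replicate 1, while 1 was lower without PN11 WT replicate 2.

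Beyond the lists, the genes with the largest falls included Pik3cd, Cpz and Snx31. Cpz, a carboxypeptidase that binds Wnt proteins, had 5.85, 4.96, 4.23 and 6.44 in PN56 Klf5CN arrays, against 10.55, 10.59 and 10.37 in PN11 WT arrays (log2 -5.13, SE 0.44, adjusted p = 5.5e-05). Snx31 had 3.82, 4.15, 3.65 and 4.27 in PN56 Klf5CN arrays, against 8.65, 8.58 and 8.55 in PN11 WT arrays (log2 -4.62, SE 0.21, adjusted p = 2.9e-06). Pik3cd, a phosphoinositide 3-kinase known from leukocytes, had 6.81, 6.36, 6.75 and 7.25 in PN56 Klf5CN arrays, against 11.95, 12.12 and 12.11 in PN11 WT arrays on its brightest probe set (log2 -5.27, SE 0.19, adjusted p = 9e-07). On its other tested probe set it was higher in the mutant (log2 1.15, SE 0.26, adjusted p = 0.0067), the widest disagreement between probe sets of a gene. Over all genes with several tested probe sets and any call, 41 of 2493 had calls in both directions.

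The widest spread among the mutant arrays was in Igkv8-30 and Mfap4, followed by Snap25, a synaptic protein of retina and nerve that had 7.54, 9.93, 5.28 and 4.86 in PN56 Klf5CN arrays and 3.78, 3.77 and 3.51 in PN11 WT arrays (log2 3.22, SE 1.03, adjusted p = 0.032), with replicate 2 highest. Lce3c had 3.50, 6.04, 8.52 and 7.93 in PN56 Klf5CN arrays, highest in replicates 3 and 4. Reg3g, a lectin that kills bacteria, had 6.97, 3.94, 8.94 and 7.98 in PN56 Klf5CN arrays, against 3.32, 3.52 and 3.32 in PN11 WT arrays (log2 3.57, SE 0.96, adjusted p = 0.015), with replicate 2 lowest. The mutant corneas differed among themselves in surface, stromal, retinal and plasma cell transcripts, in a different order of arrays for each.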

How the data were processed

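Pooled corneal RNA, a single array per mouse, was labelled with the 3' IVT Express kit and hybridised to Affymetrix mouse genome arrays. The deposited intensity of each probe set (its signal) was computed by the authors with GCOS 1.4 at software defaults, per the labels and methods, and scaled so that the 2% trimmed mean of an array was 150. The deposited number of arrays of a group called Present was used as a description. Columns of the authors' own pairwise changes were not used. All 631414 signals were equal in the 2 deposited tables.

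Signals under 10 were set to 10 and taken as log2. Probe sets with a signal above 20 in at least 3 of the 7 arrays were tested (27637 of 45101) with limma 3.58.1 (lmFit and eBayes with trend, 2 groups) in R 4.3.3, and p-values were adjusted by the Benjamini-Hochberg method over all of them. The test measures the spread between mice. A gene was read by its brightest tested probe set with a single symbol. The platform table gave 1 symbol to 34958 probe sets, several to 932 and none to 9211, for 18194 genes, of whose symbols 48 had no match in the gene reference. Summaries and figures used Python 3.11.15, pandas 2.3.3, numpy 2.4.6, scipy 1.17.1 and matplotlib 3.10.9. On simulated data for this comparison (27637 probe sets), 79 of 100 probe sets changed 3-fold and 95 of 100 changed 6-fold were called, with 3 false calls. The simulated noise was normal and independent between probe sets. Only probe sets of middle PN11 WT signal were changed, and all others were left equal between the groups. These rates therefore need not hold for the real arrays.

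The members and the 57 gene lists were chosen with earlier results of these data known. Genes were named by rule: the largest differences in each direction, the largest calls and brightest alike genes of each list, the Klf family, cell type markers, the genes whose probe sets differed most, the brightest alike genes, and the called genes of widest spread among mutant arrays. The rule took in every cell type marker, but the text names only part of them, which is a further selection. Outside this rule Akr1b8, Aldh1a3, Cdkn1c, Col1a2, Col3a1, Cst6, Cxcl1, Cxcl12, Frzb, Fzd1, Grhl2, Impact, Krt75, Krtdap, Lamb1, Lamc1, Mki67, Mmp12, Pf4, Tfap2a, Timp3, Tnc and Trp63 were named after their values were seen. The 23 alternative settings changed the scaling, floor, filter, variance model, probe set choice, fold minimum or arrays used. The number of arrays limits the precision.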

Additional observations from a re-analysis of the deposited data

Results flagged for a closer look

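In 18 of 289 genes that are named above and were checked, 1 PN56 Klf5CN array lay far from the other 3 on the log2 scale by Dixon's criterion, which chance alone meets in about 1 in 20 groups. The 3 juvenile arrays were too few to examine.

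PN56 Klf5CN replicate 3 was the lowest array for Cd74 at 9.96, against 11.49 in the others, for Ptprc at 7.47 (others 8.97 to 9.16), and for Jchain at 6.97 (others 10.27 to 10.79). It was also lowest for Lpl at 4.73 (others 6.17 to 6.26), Reln at 5.91 (others 7.33 to 7.54), Car12 at 8.17 (others 8.91 to 8.96) and Krt17 at 10.55 (others 11.21 to 11.32). It was the highest array for Pcna at 11.71 (others 11.13 to 11.21), Tjp1 at 11.32 (others 10.80 to 10.87), Il1a at 9.25 (others 8.76 to 8.82), Fabp4 at 9.82 (others 9.31 to 9.32) and Oasl1 at 10.45 (others 10.12 to 10.17).

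PN56 Klf5CN replicate 2 was highest for Oas2 at 8.63 (others 7.09 to 7.35), Impact at 8.01 (others 7.54 to 7.60) and Krtdap at 3.57, where the others were at the floor of 3.32, and lowest for Sox9 at 8.06 (others 8.18 to 8.20). PN56 Klf5CN replicate 1 was highest for Chad at 7.18 (others 4.31 to 4.79), and PN56 Klf5CN replicate 4 for Defb1 at 10.81 (others 10.32 to 10.39).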

How the results depend on the processing

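Against 954 genes higher and 1711 lower, setting signals under 32 to 32 gave 630 higher, the probe set of smallest p per gene gave 1991 higher (49.5% of its calls, against 35.8%), and dropping the fold minimum gave 2105 higher and 3391 lower. Genes with a single tested probe set, a setting chosen after seeing the data that tests fewer genes, gave 588 higher, 1086 lower and 3248 alike, against 7140 alike. Leaving out 1 array in turn gave 845 to 1089 higher, 1527 to 1847 lower and 6117 to 7278 alike. The median difference over probe sets was 0.035 in log2, 0.019 to 0.048 with an array left out, and -0.02 with a signal over 64 required in 3 arrays. With the Actb ratio as a covariate 937 genes were higher and 1947 lower, of which 793 and 1571 were shared.

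The replicate numbers did not pair the mice, whose deviations correlated at 0.0195, 0.0697 and 0.0357 between arrays of the same number. With the replicate number as a block 956 genes were higher and 1860 lower, and 864 and 1636 of the calls were shared.

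Of 202 named genes that were called, 151 kept call and direction in every setting. Directions turned in 8 of 6339 combinations of gene and setting, all by probe set choice, and the cause was not tested: with the smallest p Klf5 was at -5.00, Pax6 at 3.05, Fzd1 at 2.12, Impact at 1.39, Tfap2a at 1.11 and Tkt at -2.04, and with the mean of the probe sets Klf5 was at -2.86 and Pax6 at 1.01.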
